A study of Mus musculus with 4 samples.

Results

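The genes described here build, cut, cap and tie actin filaments. They were chosen by name: every symbol that begins with Arpc followed by a digit, which gave 7 genes, and 45 further symbols of actin, of actin monomer binding proteins and of regulators of nucleation, severing, capping, bundling and membrane or adhesion linkage. All 52 were found among the 24346 rows of the deposited tables, of which 3 (Diaph1, Diaph2 and Diaph3) stand there under their older names Diap1, Diap2 and Diap3. Transcripts were measured by sequencing of polyadenylated RNA from whole aorta of C57BL/6 mice aged 3 weeks. There were 2 libraries from mice with a knockout of GGPPS (KO), the enzyme geranylgeranyl diphosphate synthase encoded by Ggps1, and 2 libraries from wild-type mice (WT). The labels name no treatment and give male and female aorta for each library, so each appears to pool animals, of a number that is not stated. No source used here gives the promoter or cell type in which the gene was removed. Since separate litters or animals behind the libraries are not stated either, the p-values speak of the differences among these 4 libraries, which can be technical. KO 1, KO 2, WT 1 and WT 2 are names only.

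Actin exists as monomers and as filaments. Profilin feeds monomers to growing ends and beta-thymosins hold them back, the Arp2/3 complex starts side branches when WASP or WAVE proteins activate it, and formins start and lengthen unbranched filaments. Cofilins and destrin cut old filaments, capping proteins close the fast-growing end, and plastins, fascin and alpha-actinins tie filaments into bundles. GGPPS makes the geranylgeranyl lipid that is attached to many membrane-bound signalling proteins. In the wall of an artery the smooth muscle cells hold most of the actin, both as contractile filaments built on smooth muscle alpha-actin and as a cytoskeleton of beta- and gamma-actin.

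Values are FPKM, fragment counts set relative to transcript length and to library size, so levels can be set beside each other between genes. Ggps1 stood at 1.18 and 1.07 FPKM in the KO libraries, against 8.96 and 10.6 FPKM in the WT libraries, in the direction of the labels. FPKM summed to 611767 and 632918 in the KO libraries, against 515927 and 520478 in the WT libraries, and the sequencing depth is unknown. Marker lists show what else the tissue held. All 10 contractile smooth muscle markers were lower in KO by limma, and their summed level was 3922 and 4804 FPKM in KO, against 14752 and 15973 FPKM in WT. All 7 tested endothelial markers were lower as well, as were 7 of 8 markers of adventitial fibroblasts. The remaining fibroblast marker, Lum, was higher, at 83.6 and 82.4 FPKM in KO, against 46.4 and 41.8 FPKM in WT (limma adjusted p = 3.84e-06). All 10 macrophage markers (summed to 551 and 466 FPKM in KO, against 74.6 and 75.4 FPKM in WT), all 8 general leukocyte markers (226 and 175 FPKM in KO, against 16.5 and 17.9 FPKM in WT) and all 6 proliferation markers were higher in KO. The 8 T and B cell markers stayed under the test's filter, summed to 0.923 and 0.818 FPKM in KO, against 0.337 and 0.371 FPKM in WT, and Cd3e and Cd8a were listed at 0 in both WT libraries. Of 6 tested erythrocyte and platelet markers, the platelet genes Pf4, Ppbp and Itga2b were higher in KO, Hba-a2 was lower and 2 did not pass. Among the markers called higher, Adgre1, Itgam, Fcgr1, Ptprc, Cd53, Itgb2, Ppbp and Itga2b were under 1 FPKM in both WT libraries. Those genes passed the filter through the KO libraries alone and could only be called as rises. Hbb-bs, a globin gene, was uneven, at 37.3 and 163 FPKM in KO, against 129 and 159 FPKM in WT. In whole tissue, fewer cells of a type and less RNA per cell cannot be told apart.

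The comparison asked how transcripts of the actin machinery differed between KO and WT aorta. The test took genes that reached 1 FPKM in 2 or more of the 4 libraries and was made with limma on log2(FPKM + 1), with p-values adjusted over all 12314 tested genes and a threshold of 0.05. Of the 52 genes, 51 passed the filter. Wasf1, a WAVE protein best known from neurons, did not, at 0.136 and 0.317 FPKM in KO, against 0.726 and 0.927 FPKM in WT. Of the 51, 26 were higher in KO (51.0%), 14 were lower (27.5%) and 11 did not pass, where 35.2% of all tested genes were called higher and 30.6% lower. A call in either direction was made for 78.4% of the 51, against 65.7% of all tested genes. The filter could be passed through the KO libraries alone by Was, Diaph3 and Pak1, which were under 1 FPKM in both WT libraries, and these could only be called as rises. The median log2 fold change over the 51 was 0.29, against 0.03 over all tested genes. At least 2-fold changes on that scale were called for 10 rises (10.9% of all tested genes) and 3 falls (7.62%). The level summed over the 52 genes overlapped between the genotypes as deposited, at 12735 and 13885 FPKM in KO, against 13552 and 14346 FPKM in WT. As a share of all FPKM in a library it did not overlap, at 2.08% and 2.19% in KO, against 2.63% and 2.76% in WT. By these calls, within every role except the Arp2/3 complex and the capping proteins, some genes rose while others fell. With column totals made equal, the split of the 51 was 19 higher and 20 lower, against 25.3% higher and 45.3% lower among all genes, whose median moved to -0.20 (70.6% called in all). With trends of fold change on transcript length and GC content removed, it was 21 and 13, against 35.0% and 27.3% (62.3% in all). Diaph1, Diaph2 and Diaph3 were not part of that setting. Without a test, both KO libraries lay above both WT libraries for 29 of the 51 genes and below for 19, against 43.6% and 39.6% of all tested genes.

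**Figure D1:**
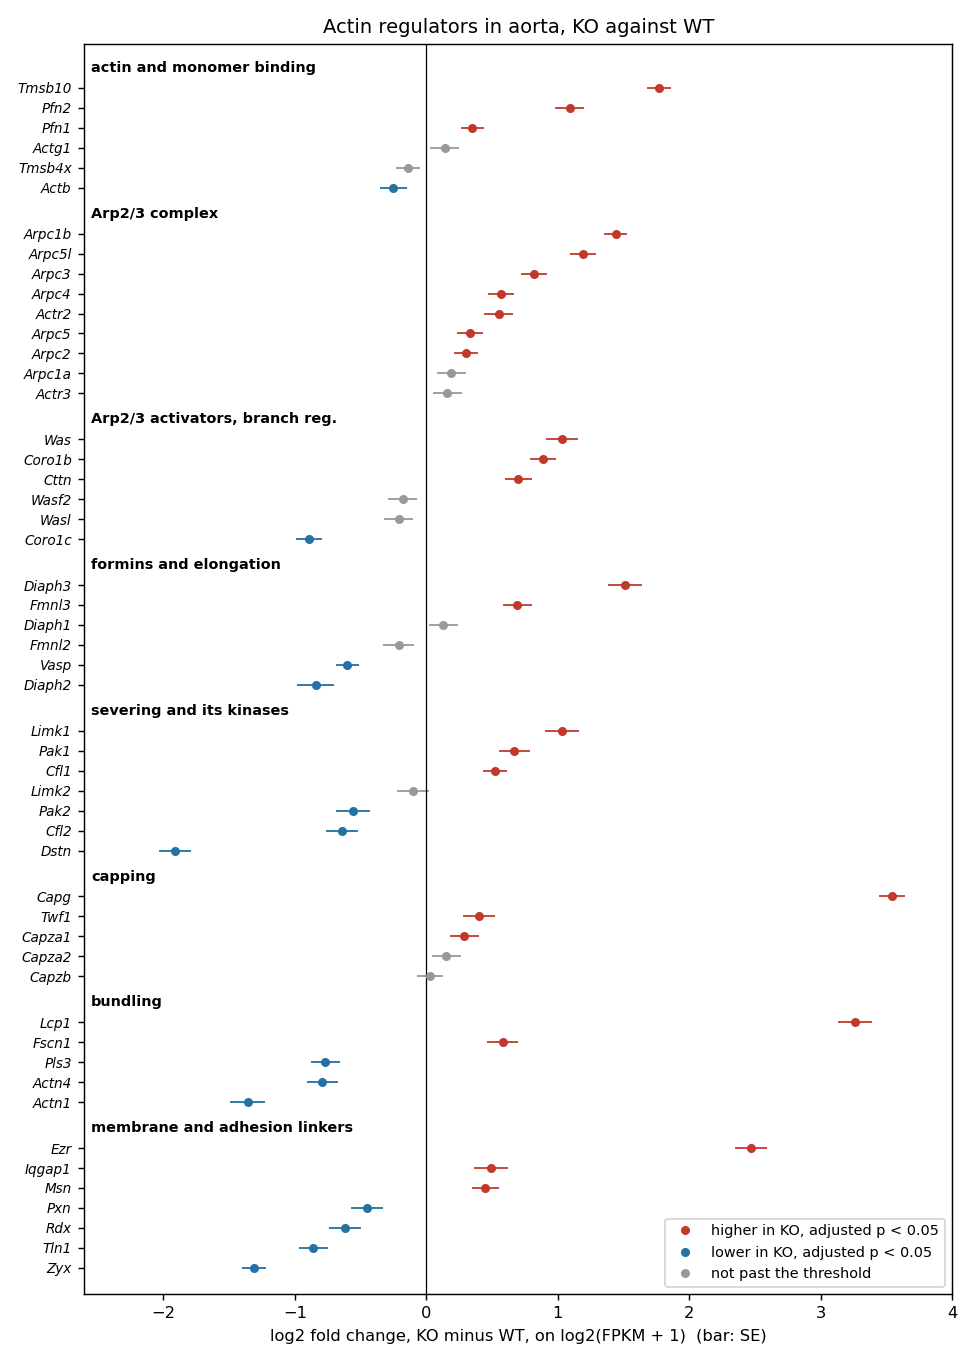
Log2 fold change (KO minus WT, horizontal axis, on the log2(FPKM + 1) scale) of the 51 tested genes, grouped by role, with bars for the SE. Red points were called higher in KO, blue points lower and grey points did not pass the threshold. Capg and Lcp1 lie farthest to the right at 3.54 and 3.26, and Dstn farthest to the left at -1.91.

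The tested muscle actins fell several-fold and the cytoplasmic actins differed far less, so the makeup of actin RNA shifted. Actb, cytoplasmic beta-actin, stood at 901 and 1058 FPKM in the KO libraries, against 1095 and 1233 FPKM in the WT libraries. The KO libraries lie just below the WT libraries, with a log2 fold change of -0.25 (SE 0.10, limma adjusted p = 0.0466). Actg1, cytoplasmic gamma-actin, was at 819.5 and 973 FPKM in KO, against 763 and 859 FPKM in WT, and these ranges overlap (limma adjusted p = 0.251). The muscle actins are not among the 52 genes, and the 3 of them that were tested all fell. Acta2, smooth muscle alpha-actin, was at 1049 and 1791 FPKM in KO, against 6277 and 7437 FPKM in WT. Actg2, smooth muscle gamma-actin, was at 70.4 and 141 FPKM in KO, against 449 and 479 FPKM in WT. Actc1, cardiac actin, was at 0.0293 and 0.327 FPKM in KO, against 4.62 and 6.66 FPKM in WT, and Acta1, skeletal actin, was under 1 FPKM in each library. As a share of the summed FPKM of these 6 actin genes, Actb and Actg1 together made up 60.6% and 51.3% in KO, against 21.6% and 20.9% in WT. The sum itself was 2841 and 3963 FPKM in KO, against 8589 and 10015 FPKM in WT. Beta-actin RNA per smooth muscle alpha-actin RNA was 0.859 and 0.591 in KO, against 0.174 and 0.166 in WT. The summed contractile smooth muscle markers moved with this makeup, and their part in it was not tested. Actb no longer passed in 5 of 13 alternatives, such as that without WT library 2 (log2 fold change -0.16, limma adjusted p = 0.307) and without KO library 1 (-0.13, 0.318), and it was lower still with equal column totals (-0.51, 0.000636) and with transcript length and GC trends taken out (-0.48, 0.00102). Near-identical processed copies of Actb, Actg1, Tmsb4x, Tmsb10, Pfn1 and Cfl1 exist in the genome, so their values are uncertain.

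**Figure D2:**
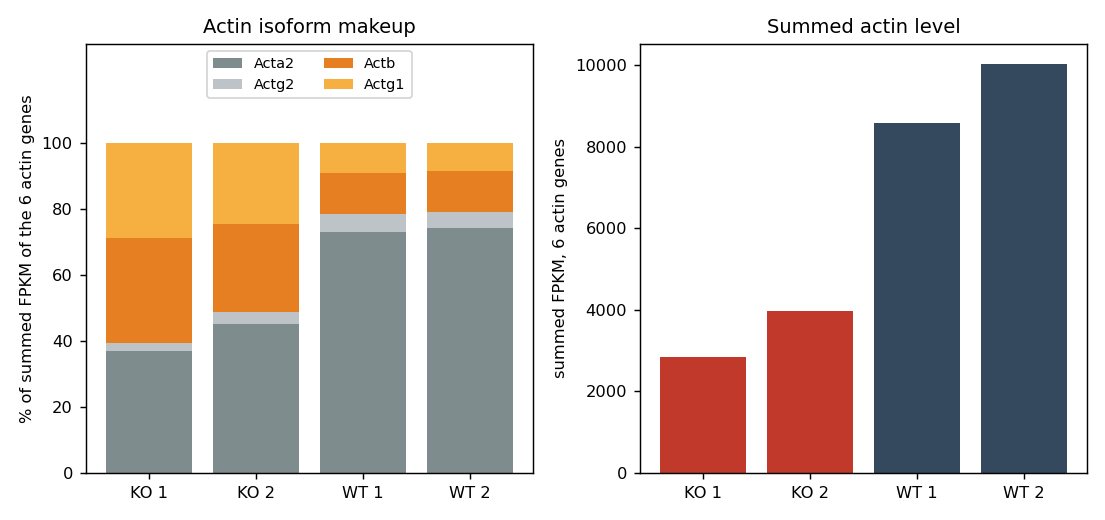
Left, share of each actin gene in the summed FPKM of 6 actin genes (percent, stacked bars, 1 bar per library; Acta1 and Actc1 are too small to be seen and are not drawn). Right, the summed FPKM per library. Beta- and gamma-actin make up 60.6% and 51.3% in the KO libraries and 21.6% and 20.9% in the WT libraries, while the sum is lower in both KO libraries.

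Promoters of some of these genes are shown because serum response factor, which binds the CArG box, is known to drive actin genes in smooth muscle, and because the actins did not move alike. No promoter of Actb is shown. The windows below lie within 250 bases before the RefSeq transcription start (build GRCm38.p6), run 5′ to 3′ on the strand of the gene and carry CArG boxes, searched on both strands, in capitals. Positions are counted from the start. Actg1 held a full CArG box at -90 (chr11:120348536-120348625, minus strand), and Arpc4, an Arp2/3 subunit, held one at -250 (chr6:113377863-113377912, plus strand). Vcl, which encodes the adhesion protein vinculin, held a full box at -227 (chr14:20929148-20929220, plus strand). Acta2 held 2 boxes that each have 1 G or C in the A/T core, at -84 and -34 (chr19:34255374-34255497, minus strand), and Dstn, the gene of destrin, held 1 of this kind at -106 (chr2:143915185-143915274, plus strand). Dstn held another of this kind at 40, after the start and outside the printed window. Of the 52, those with a box but not printed are Vasp (-31), Rdx (-116) and Arpc1a (-105), with 1 each of the other kind. Vasp and Rdx fell and Arpc1a did not pass. Of the other actin regulators in the wider list below, Actc1 held a full box at -47 and 3 of the other kind. Boxes of the other kind also lay in Gsn, Flnc, Fmn1, Espn, Ssh3, Tesk1 and Washc1. Actc1, Gsn and Flnc fell, Fmn1 rose, and Espn, Ssh3, Tesk1 and Washc1 did not pass. The fall of Flnc was close to the threshold (-0.26, limma adjusted p = 0.0447). With length and GC trends removed, Flnc was called higher (0.41, adjusted p = 0.00385), as was Espn (0.44, 0.0156). Tesk1 passed as lower with equal column totals (-0.47, adjusted p = 0.00285). Acta1 and Vil1, each with a full box, and Coro2a and Pfn3, with the other kind, were not tested.
Actg1: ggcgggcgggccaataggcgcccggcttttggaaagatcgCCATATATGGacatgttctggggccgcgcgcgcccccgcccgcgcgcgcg
Arpc4: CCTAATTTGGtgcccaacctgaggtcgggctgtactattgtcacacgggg
Vcl: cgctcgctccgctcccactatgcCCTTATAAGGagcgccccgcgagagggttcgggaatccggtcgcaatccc
Acta2: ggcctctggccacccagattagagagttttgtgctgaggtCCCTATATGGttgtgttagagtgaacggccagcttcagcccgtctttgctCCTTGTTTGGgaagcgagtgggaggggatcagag
Dstn: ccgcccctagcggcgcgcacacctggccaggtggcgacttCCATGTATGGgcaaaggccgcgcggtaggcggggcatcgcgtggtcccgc
Of the 5 genes printed, which were picked by name from those with a box, Acta2, Dstn and Vcl fell in KO. Arpc4 rose and Actg1 did not pass the test. Binding of serum response factor was not measured, and its part in these differences was not tested. Promoters were listed for 45 of the 52 genes. Of their 55 windows from 250 bases before to 50 after the start, only 2 (3.64%) held a full CArG box. Among all 32851 windows the share was 1.63%. A share that rests on 2 windows was not tested. With 1 G or C allowed in the core the shares were 10.9% and 9.98%. For the 102 windows of the wider list they were 3.92% (4 windows) with a full box and 15.7% (16 windows) with 1 G or C allowed.

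Monomer binding genes rose in 3 of 4 cases, where 35.2% of all tested genes were called higher. Tmsb10, thymosin beta-10, which sequesters actin monomers, stood at 822 and 863 FPKM in KO, against 252 and 240.0 FPKM in WT, a 3.43-fold difference (log2 fold change 1.77, SE 0.09, limma adjusted p = 1.75e-09). Both KO libraries lie far above both WT libraries. Its relative Tmsb4x, the most abundant of the 52 genes, was at 3931 and 4226 FPKM in KO, against 4327 and 4667 FPKM in WT, and did not pass (limma adjusted p = 0.186). The ratio of Tmsb10 to Tmsb4x was thus 0.209 and 0.204 in KO, against 0.0582 and 0.0514 in WT. Pfn1, the ubiquitous profilin, was at 1208 and 1235 FPKM in KO, against 951 and 969 FPKM in WT (limma adjusted p = 0.0032). Pfn2, the profilin best known from brain, was far less abundant and rose more, to 22.8 and 23.3 FPKM in KO, against 10.7 and 9.92 FPKM in WT. The rise of Pfn1 did not pass with equal column totals (0.08, adjusted p = 0.402). Tmsb4x passed as lower with equal column totals (-0.40, adjusted p = 0.00185) and once length and GC trends were taken out (-0.61, 3.25e-05).

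Of the 9 Arp2/3 complex genes among the 52, 7 rose and none fell, where 35.2% of all tested genes were called higher. All 9 had both KO libraries above both WT libraries as deposited, a pattern of 43.6% of all tested genes. With equal column totals, and likewise with length and GC trends removed, 5 of 9 passed: Arpc2 and Arpc5 no longer did, Actr3 and Arpc1a turned to between -0.11 and -0.02, and Arpc2 turned to -0.04 under the second. Their summed level was 1586 and 1650 FPKM in KO, against 954 and 953 FPKM in WT. Of the core, Actr2, the actin-related protein ARP2, was at 57.7 and 69.4 FPKM in KO, against 42.7 and 43.2 FPKM in WT (limma adjusted p = 0.000646). Actr3, the partner ARP3, was at 102 and 125 FPKM in KO, against 101 and 102 FPKM in WT, where the lower KO library all but meets the WT libraries, and it did not pass (limma adjusted p = 0.227). Actr3b, a paralogue of Actr3 kept in the wider list below, fell, at 0.584 and 1.01 FPKM in KO, against 2.41 and 2.45 FPKM in WT (limma adjusted p = 3.73e-05). Rises were uneven over the other subunits, and the largest were in subunits that have an alternative paralogue. Arpc1b, the ARPC1 isoform that predominates in blood cells, stood at 614 and 588 FPKM in KO, against 221 and 222 FPKM in WT, 2.71-fold higher (log2 fold change 1.44, SE 0.09, limma adjusted p = 1.27e-08). Arpc1a, the other ARPC1 isoform, was at 51.2 and 58.1 FPKM in KO, against 46.8 and 48.6 FPKM in WT, and did not pass (limma adjusted p = 0.131). Arpc1b per Arpc1a was 12.0 and 10.1 in KO, against 4.72 and 4.57 in WT, so Arpc1b was the more abundant isoform in both genotypes. Arpc5l was at 76.4 and 85.6 FPKM in KO, against 34.3 and 35.5 FPKM in WT (limma adjusted p = 3.19e-07), and its paralogue Arpc5 at 104 and 116 FPKM in KO, against 85.0 and 88.6 FPKM in WT (0.0101). Arpc3 was at 194 and 212 FPKM in KO, against 110.2 and 118 FPKM in WT. Arpc4 was at 91.3 and 84.4 FPKM in KO, against 60.0 and 57.9 FPKM in WT. Arpc2 was closest among the risers, at 294 and 312 FPKM in KO, against 253 and 238 FPKM in WT (limma adjusted p = 0.0111). Arpc2 did not pass without WT library 2 (adjusted p = 0.136), nor Arpc5 without WT library 1 or 2 (0.112 and 0.0528), while Actr3 and Arpc1a passed without KO library 1 (0.018 and 0.0295). Exons of Pdap1 on the opposite strand cover 18.2% of the exon bases of Arpc1b, and no source used here says whether reads were counted by strand. Exons of Ttll3 on the same strand cover 12.2% of the exon bases of Arpc4. The macrophage and leukocyte markers, 6.78-fold and 11.7-fold higher in summed level in KO, moved with the rise of these genes, and their part in it was not tested.

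**Figure D3:**
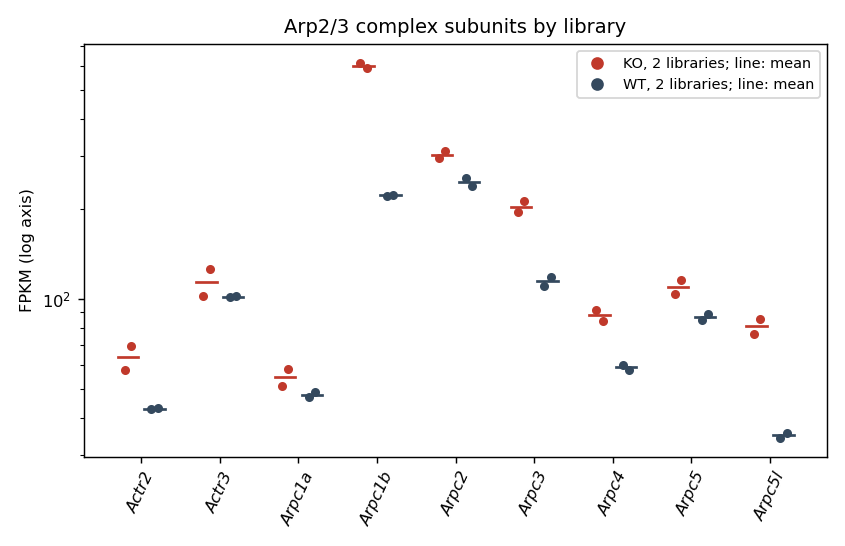
FPKM (log axis) of the 9 Arp2/3 complex genes in each library, KO in red to the left of WT in blue-grey, with a line at the mean of each genotype. Arpc1b is the most abundant subunit in KO, at 614 and 588 FPKM, and its gap to WT is the widest, while the points of Actr3 nearly meet.

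Of the 6 tested activators and branch regulators of the Arp2/3 complex, 3 rose and 1 fell, and the abundant WASP and WAVE genes were not among them. Among all tested genes, 35.2% rose and 30.6% fell. Was, the WASP protein of blood cells, was at 1.40 and 1.17 FPKM in KO, against 0.156 and 0.0857 FPKM in WT (log2 fold change 1.03, limma adjusted p = 5.9e-06), and stayed low in both genotypes. Wasl, the widely expressed N-WASP, was at 15.7 and 16.7 FPKM in KO, against 20.1 and 17.9 FPKM in WT, and Wasf2, the WAVE protein of most tissues, at 22.7 and 21.6 FPKM in KO, against 25.7 and 24.7 FPKM in WT. Neither passed (limma adjusted p = 0.119 and 0.159), although both KO libraries lay below both WT libraries. Both passed as lower with equal column totals (-0.46 and -0.43), while with length and GC trends removed Wasf2 was at 0.14. Cttn, cortactin, which stabilises branches, was at 97.6 and 106 FPKM in KO, against 64.5 and 60.0 FPKM in WT (limma adjusted p = 3.57e-05). The coronins, which take part in branch removal, went opposite ways. Coro1b was at 156 and 151 FPKM in KO, against 79.7 and 84.4 FPKM in WT (limma adjusted p = 2.29e-06). Coro1c was at 49.2 and 53.4 FPKM in KO, against 93.7 and 97.9 FPKM in WT (3.59e-06). Coro1b per Coro1c was 3.18 and 2.82 in KO, against 0.850 and 0.863 in WT. Exons of Ptprcap, a leukocyte gene, cover 13.5% of the exon bases of Coro1b on the same strand.

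Formins and elongation factors were mixed, with 2 higher and 2 lower of 6, against 35.2% and 30.6% of all tested genes. Diaph3, the formin mDia2, was at 3.21 and 3.29 FPKM in KO, against 0.601 and 0.385 FPKM in WT (log2 fold change 1.51, limma adjusted p = 2.03e-07). Diaph1, the formin mDia1, was at 12.5 and 12.8 FPKM in KO, against 11.4 and 11.5 FPKM in WT, and did not pass (0.333). Diaph2, the formin mDia3, was at 2.28 and 3.10 FPKM in KO, against 5.16 and 5.95 FPKM in WT (limma adjusted p = 0.000138). So the 3 Diaphanous genes each took another course, and Diaph1 remained the most abundant of them. Fmnl3, a formin-like gene, was at 33.2 and 33.5 FPKM in KO, against 21.0 and 19.6 FPKM in WT (limma adjusted p = 6.67e-05), while Fmnl2 was at 4.21 and 4.74 FPKM in KO, against 5.16 and 5.50 FPKM in WT (0.152). Vasp, which keeps barbed ends growing, was at 108 and 110.3 FPKM in KO, against 165 and 167 FPKM in WT (log2 fold change -0.60, SE 0.09, limma adjusted p = 7.39e-05). The proliferation markers, summed to 92.7 and 89.8 FPKM in KO, against 10.3 and 7.79 FPKM in WT, moved in the direction of Diaph3, and their part in it was not tested.

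Among severing proteins, Dstn and Cfl2 fell and Cfl1 rose. Dstn, destrin or actin depolymerising factor, stood at 344 and 469.7 FPKM in KO, against 1468 and 1558 FPKM in WT, 3.72-fold lower (log2 fold change -1.91, SE 0.12, limma adjusted p = 1.71e-08). This was the largest fall of the 51 tested genes, and KO 1 lay below KO 2. Cfl2, the muscle cofilin, was at 48.6 and 61.0 FPKM in KO, against 84.4 and 86.0 FPKM in WT (limma adjusted p = 0.000266). Cfl1, the cofilin of most cells, was at 763 and 724 FPKM in KO, against 538 and 499.5 FPKM in WT (limma adjusted p = 0.000217). Exons of Snx32 on the opposite strand cover 16.5% of the exon bases of Cfl1. Cfl1 was the lower of Cfl1 and Dstn in both WT libraries and the higher in both KO libraries: Cfl1 per Dstn was 2.22 and 1.54 in KO, against 0.367 and 0.321 in WT. Summed with their kinases, the class was at 1185 and 1285 FPKM in KO, against 2121 and 2173 FPKM in WT. The kinases that inactivate cofilin, and those that act above them, were low and mixed. Limk1, a LIM kinase, was at 10.6 and 9.17 FPKM in KO, against 4.72 and 3.92 FPKM in WT (limma adjusted p = 1.11e-05), while Limk2 was at 6.04 and 6.18 FPKM in KO, against 6.62 and 6.58 FPKM in WT (0.493). Pak1 was at 1.77 and 1.68 FPKM in KO, against 0.630 and 0.791 FPKM in WT (limma adjusted p = 0.000268). Pak2, the PAK kinase found in most tissues, was at 10.7 and 13.3 FPKM in KO, against 18.6 and 17.6 FPKM in WT (0.0014). The contractile smooth muscle markers, 3.52-fold lower in summed level in KO, moved with the fall of Dstn and Cfl2, and their part in it was not tested.

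Capping genes rose in 3 of 5 cases, where 35.2% of all tested genes did, and 1 of them rose far more than the rest. Capg, a gelsolin relative that caps without cutting and is abundant in macrophages, stood at 170.0 and 164 FPKM in KO, against 12.8 and 14.1 FPKM in WT, 12.4-fold higher (log2 fold change 3.54, SE 0.10, limma adjusted p = 8.89e-12). It was the largest rise of the 51 on the log2(FPKM + 1) scale, and at its KO level it came close to Capzb, the beta subunit of capping protein. Capzb was at 181 and 205 FPKM in KO, against 189 and 189.6 FPKM in WT, with overlapping ranges (limma adjusted p = 0.823). The alpha subunit genes moved little: Capza1 was at 43.4 and 48.4 FPKM in KO, against 37.3 and 37.5 FPKM in WT (0.0281), and Capza2 at 63.9 and 74.5 FPKM in KO, against 59.8 and 64.2 FPKM in WT (0.224). Twf1, twinfilin, which caps barbed ends and binds monomers, was at 30.5 and 38.2 FPKM in KO, against 24.9 and 26.4 FPKM in WT (limma adjusted p = 0.0104). Exons of Irak4 on the opposite strand cover 12.9% of the exon bases of Twf1. The calls of Capza1 and Twf1 ended with equal column totals (adjusted p = 0.799 and 0.26), with length and GC trends taken out (0.152 and 0.0613), which left Capg as the 1 capping gene called higher in each, and without WT library 1 (0.177 and 0.0876) or KO library 2 (0.0678 and 0.06), and that of Capza1 also without WT library 2 (0.158). Capza2 passed without KO library 1 (0.26, 0.0431). With equal column totals Capzb passed as lower (-0.24, adjusted p = 0.0349). The summed macrophage markers were 508 ± 60.0 FPKM in KO, against 75.0 ± 0.561 FPKM in WT (SD, n = 2 each), and their part in the rise of Capg was not tested.

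All 5 bundling genes were called, 2 higher and 3 lower, where 65.7% of all tested genes were called, 35.2% higher and 30.6% lower. Lcp1, L-plastin, the plastin of leukocytes, was at 19.0 and 19.1 FPKM in KO, against 0.903 and 1.29 FPKM in WT, 17.4-fold higher (log2 fold change 3.26, SE 0.13, limma adjusted p = 1.78e-10). Pls3, T-plastin, the form of solid tissues, was at 254 and 323 FPKM in KO, against 474 and 508 FPKM in WT (log2 fold change -0.77, limma adjusted p = 4.18e-05). T-plastin still far outweighed L-plastin, with a ratio of Lcp1 to Pls3 of 0.0746 and 0.0591 in KO, against 0.00191 and 0.00254 in WT. Actn1, an alpha-actinin of stress fibres and adhesions, was at 162 and 222 FPKM in KO, against 460.1 and 514 FPKM in WT (log2 fold change -1.36, SE 0.13, limma adjusted p = 7.34e-07). Actn4, the other non-muscle alpha-actinin, was at 246 and 313 FPKM in KO, against 446 and 516 FPKM in WT (5.55e-05). The alpha-actinins were about equal in WT, with Actn1 per Actn4 at 0.658 and 0.708 in KO, against 1.03 and 0.997 in WT. Fscn1, fascin, a bundler of filopodia, was at 3.21 and 2.98 FPKM in KO, against 1.70 and 1.78 FPKM in WT (limma adjusted p = 0.000918), a low level in both. The leukocyte markers, 11.7-fold higher in summed level in KO, moved with Lcp1, and the contractile smooth muscle markers, 3.52-fold lower, with Pls3 and the alpha-actinins, and their part was not tested.

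**Figure D4:**
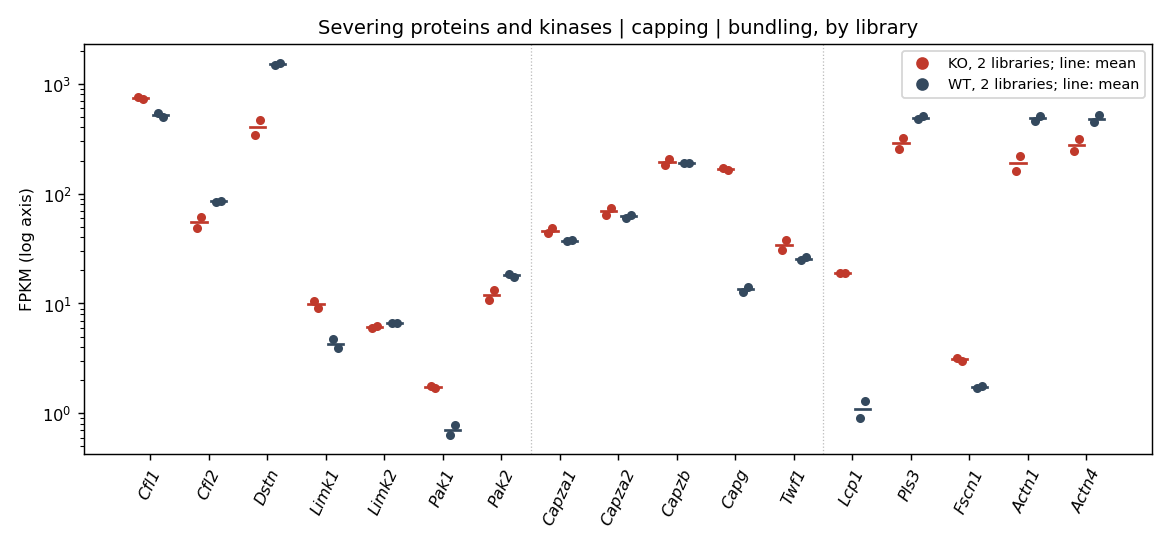
FPKM (log axis) of severing genes with their kinases, capping genes and bundling genes in each library, KO in red to the left of WT in blue-grey, with a line at each mean. Dotted lines part the 3 classes. Dstn, Actn1, Actn4 and Pls3 are lower in both KO libraries, Capg and Lcp1 are higher by more than 10-fold, and Capzb and Capza2 overlap.

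Linkers to the membrane and to adhesions were all called, 3 higher and 4 lower. Of all tested genes 65.7% were called, 35.2% higher and 30.6% lower. The ERM proteins, which tie filaments to the plasma membrane, differed from each other. Ezr, ezrin, the form known from epithelia, was at 16.1 and 17.4 FPKM in KO, against 2.09 and 2.30 FPKM in WT, 7.61-fold higher (log2 fold change 2.47, SE 0.12, limma adjusted p = 1.25e-09). Msn, moesin, the most abundant of the 3, was at 219 and 259.5 FPKM in KO, against 171 and 179 FPKM in WT (limma adjusted p = 0.00183). Rdx, radixin, was at 25.3 and 32.2 FPKM in KO, against 44.0 and 44.5 FPKM in WT (0.000525). Ezr per Rdx was 0.637 and 0.539 in KO, against 0.0475 and 0.0517 in WT. Iqgap1, a scaffold that binds actin filaments, was at 48.6 and 61.5 FPKM in KO, against 35.8 and 41.5 FPKM in WT (limma adjusted p = 0.00349). The focal adhesion genes fell together. Zyx, zyxin, which gathers at stress fibres under tension, was at 201 and 196 FPKM in KO, against 500.3 and 489 FPKM in WT, 2.49-fold lower (log2 fold change -1.31, SE 0.09, limma adjusted p = 2.99e-08). Tln1, talin 1, which links integrins to actin, was at 42.0 and 49.5 FPKM in KO, against 83.1 and 84.6 FPKM in WT (9.13e-06). Pxn, paxillin, an adaptor of focal adhesions, was at 28.8 and 26.7 FPKM in KO, against 42.8 and 34.2 FPKM in WT (0.00521). The log2 fold change of Tln1, -0.86, was -0.26 (adjusted p = 0.0492) once those trends were taken out. The calls of Msn and Iqgap1 ended with equal column totals (adjusted p = 0.107 and 0.091), that of Iqgap1 also without WT library 1 (0.052), and that of Pxn without WT library 1 (-0.29, 0.178) or KO library 2 (-0.40, 0.0579), or once length and GC trends were taken out (-0.26, 0.0808). The contractile smooth muscle markers, 3.52-fold lower in summed level in KO, moved with the fall of Zyx, Tln1 and Pxn, and the macrophage and leukocyte markers, 6.78-fold and 11.7-fold higher, with the rise of Ezr, Msn and Iqgap1, and their part was not tested.

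**Figure D5:**
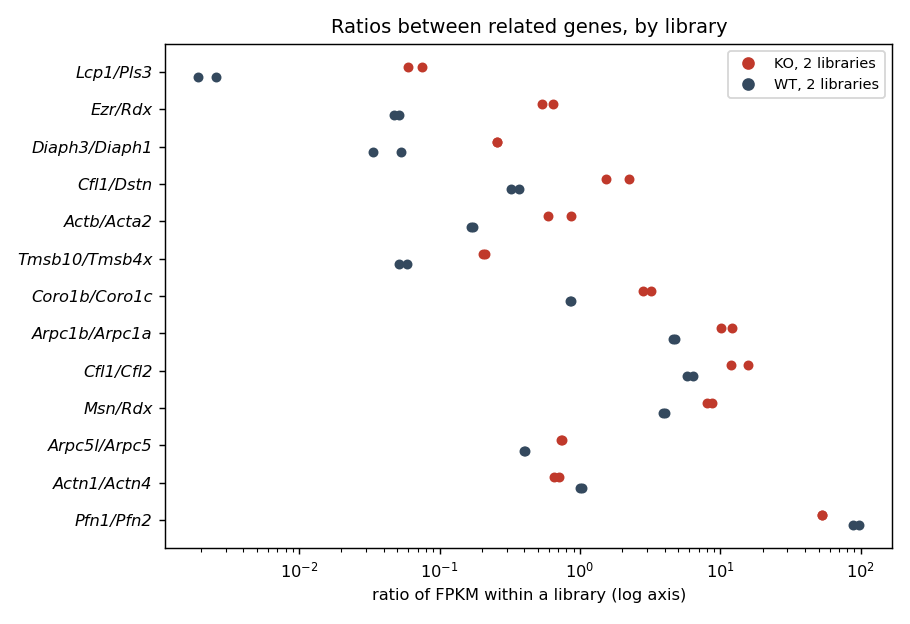
Ratio of FPKM between related genes within each library (log axis), KO in red drawn above WT in blue-grey for each pair, ordered by the change of the ratio. Scaling of a whole library cancels in these ratios. The widest gap is that of Lcp1/Pls3 at 0.0746 and 0.0591 in KO against 0.00191 and 0.00254 in WT.

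Because library scaling cancels within a library, 13 ratios between related genes were set side by side, 4 of them (Cfl1/Dstn, Arpc5l/Arpc5, Ezr/Rdx and Coro1b/Coro1c) added after the values were seen. The ratios did not overlap between genotypes in any pair, where 43.6% and 39.6% of all tested genes taken singly also had both KO libraries above or below both WT libraries. Beside those given above, Cfl1 per Cfl2 was 15.7 and 11.9 in KO, against 6.38 and 5.81 in WT, and Msn per Rdx 8.68 and 8.06 in KO, against 3.88 and 4.02 in WT. Diaph3 per Diaph1 was 0.257 and 0.258 in KO, against 0.0527 and 0.0335 in WT. Pfn1 per Pfn2 was 53.0 and 53.0 in KO, against 88.6 and 97.7 in WT, and Arpc5l per Arpc5 0.737 and 0.740 in KO, against 0.403 and 0.401 in WT. With 2 libraries on each side, the smallest two-sided p of an exact permutation test is 0.333, so the ratios are values without a test.

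A wider list of 96 other actin regulators, of which 95 were in the files and 73 were tested, held 25 genes called higher and 32 called lower, which is 34.2% and 43.8%, against 35.2% and 30.6% of all tested genes. With equal column totals the split was 17 and 38, and with length and GC trends taken out it turned to 28 and 23, where Washc1 and Carmil1 were not tested. The filter was passed through KO alone by 7 of the rises (Nckap1l, Fmn1, Fmnl1, Spire2, Avil, Eps8 and Iqgap3) and through WT alone by 4 of the falls (Actc1, Daam2, Tmod2 and Actn2), and each of these could be called in that direction only. Of its nucleation genes, 11 rose and 10 fell of 25, against 5 and 11 with equal column totals and 10 and 4 with length and GC trends taken out. Nckap1l, the WAVE complex subunit of blood cells, was at 4.30 and 4.10 FPKM in KO, against 0.306 and 0.396 FPKM in WT. Spire2, an actin nucleator of the Spire family, was at 1.95 and 1.40 FPKM in KO, against 0.0267 and 0.0460 FPKM in WT. Fmnl1, the leukocyte formin-like gene, was at 3.50 and 3.18 FPKM in KO, against 0.372 and 0.444 FPKM in WT. Enah, the Ena/VASP protein Mena, went the way of Vasp, at 35.0 and 45.1 FPKM in KO, against 113 and 93.2 FPKM in WT. Evl, another Ena/VASP gene, went the other way, at 11.0 and 9.75 FPKM in KO, against 8.17 and 6.77 FPKM in WT (limma adjusted p = 0.01, and 0.19 with equal column totals). Brk1, a small WAVE complex subunit and the most abundant gene of this class, was at 187 and 161 FPKM in KO, against 137 and 129 FPKM in WT (limma adjusted p = 0.00495, and 0.32 with equal column totals).

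In the wider severing and turnover class, 7 rose and 10 fell of 23, against 35.2% and 30.6% of all tested genes. Coro1a, the coronin of leukocytes, was at 26.1 and 23.8 FPKM in KO, against 1.27 and 0.833 FPKM in WT (log2 fold change 3.67, SE 0.14, limma adjusted p = 8.11e-11). Cotl1, coactosin-like protein, was at 40.4 and 33.2 FPKM in KO, against 5.84 and 4.96 FPKM in WT, and Avil, advillin, at 4.68 and 6.05 FPKM in KO, against 0.409 and 0.324 FPKM in WT. Gsn, gelsolin, which cuts and caps filaments and is the most abundant gene of this class, was at 222 and 243 FPKM in KO, against 539.7 and 573 FPKM in WT (log2 fold change -1.25, limma adjusted p = 7.36e-08). Gelsolin and its relative Capg thus moved in opposite directions. Cap1, a cyclase-associated protein that recycles monomers, was at 119 and 139 FPKM in KO, against 164 and 175 FPKM in WT (limma adjusted p = 0.00449).

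In wider capping, 3 rose and 3 fell of 8, each by less than 2-fold on the log2(FPKM + 1) scale. Of all tested genes, 35.2% rose and 30.6% fell. Twf2, the second twinfilin, was at 22.7 and 20.3 FPKM in KO, against 11.3 and 10.3 FPKM in WT, Eps8 at 1.52 and 1.60 FPKM in KO, against 0.384 and 0.471 FPKM in WT, and Tmod3, the tropomodulin of most tissues, which caps the slow end, at 28.4 and 34.4 FPKM in KO, against 20.1 and 20.8 FPKM in WT. Add1, adducin 1, was at 42.6 and 46.8 FPKM in KO, against 59.9 and 59.6 FPKM in WT. Of the wider bundling and crosslinking genes, 4 rose and 6 fell of 14, against 2 and 7 with equal column totals and 7 and 6 with length and GC trends taken out. Flna, filamin A, the most abundant crosslinker, was at 310.0 and 440.2 FPKM in KO, against 1438 and 1496 FPKM in WT, 3.91-fold lower (log2 fold change -1.99, SE 0.13, limma adjusted p = 2.03e-08). Vcl was at 47.8 and 69.2 FPKM in KO, against 173 and 176 FPKM in WT, and Palld, palladin, at 9.68 and 12.3 FPKM in KO, against 33.5 and 32.1 FPKM in WT. These 3 fell beside Actn1 and Zyx, which share stress fibres and adhesions with them.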

How the data were processed

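RNA was sequenced from 4 aorta libraries, 2 KO and 2 WT, grouped by the genotype label. For each library the authors deposited a table of FPKM (spelt PFKM), per the file headers. DESeq2 1.16.1, HISAT2 2.0.5, featureCounts 1.5.0-p3 and the build mm10 are listed, without roles, in the submitters' processing notes. No source used here says how FPKM were made or whether reads were counted by strand. Depth is unknown, so the only measure of precision is how far libraries of 1 genotype differ.

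Here log2(FPKM + 1) was fitted with limma 3.58.1 (R 4.3.3, intensity trend, 13.4 total degrees of freedom), KO minus WT, on genes that reached 1 FPKM in 2 or more libraries, with Benjamini-Hochberg adjustment. Each p called adjusted comes from this model. Fold changes on this scale understate those of low genes, and folds written as "-fold" are ratios of mean FPKM. The fit was tried on simulated data in which few genes changed, which is unlike these data, so this gives no measure of the calls here. The genes and lists were chosen with earlier results of these data known, and no list was tested. Named were, per role, the most abundant, the most changed, those against their role and those not tested, and in the wider list the called genes of smallest p and the most abundant. Actr3b and Evl were added as relatives of named genes, and others for a CArG box. Exon overlaps are from GENCODE M21, promoters from RefSeq. Alternatives were other pseudocounts (0.1, 5), filters (none, 5 FPKM), scalings, variance models, length and GC trends removed, and each library left out.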

Additional observations from a re-analysis of the deposited data

How the results depend on the processing

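The counts of the 52 genes called higher (26) and lower (14), and of the wider list, stayed within 1.5 times of these values under 13 alternatives. The median log2 fold change of the 51 tested genes, 0.29, was 0.03 with equal column totals and 0.14 with length and GC trends removed. Without 1 library it ran from 0.21 to 0.35, the counts higher from 22 to 29 and the counts lower at 13, and the share of beta- and gamma-actin in KO, 55.1% of summed actin FPKM over both libraries, from 51.3% to 60.6%. Of 40 calls, 31 held under each alternative that tested the gene (19 higher, 12 lower) and 9 did not: Actb, Pfn1, Capza1, Twf1, Msn, Iqgap1, Pxn, Arpc2 and Arpc5. Direction turned, mostly for genes that had not passed, with equal column totals for Actg1 (-0.12), Actr3 (-0.11), Diaph1 (-0.12), Capza2 (-0.11), Capzb (-0.24) and Arpc1a (-0.07). With length and GC trends removed it turned for Actg1 (-0.06), Actr3 (-0.02), Wasf2 (0.14), Limk2 (0.02), Capzb (-0.23), Arpc1a (-0.08) and Arpc2 (-0.04), the last a called rise. Capzb was also at -0.01 with median-of-ratios scaling and, without 1 library, between -0.06 (KO 2 left out) and 0.11 (KO 1 left out). Diaph1, Diaph2 and Diaph3 had no transcript length under the files' names and were not part of that setting. Beyond the construction of these settings, the cause was not tested. No paired analysis was possible because the labels number the libraries 1 to 4 and the genotypes share no number.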
